A study of Mus musculus with 12 samples.

Results

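The response of paw myeloid cells to carrageenan in Flox mice was measured by setting 3 libraries from carrageenan-injected hind paws against 3 from saline-injected ones. These were 6 of the 12 libraries of the study, chosen by the genotype and treatment in the labels and not by any measured value. Flox mice (FABP5Flox) carry Fabp5 alleles made to be cut by Cre recombinase, with no Cre named in their label, and both Flox groups share those alleles. The hind paws of adult mice received sterile saline or 1% carrageenan, and 4 h later CD45+/CD11b+/Ly6G- cells, that is, myeloid leukocytes without the neutrophil marker Ly6G, were collected by flow cytometry. By the number ranges in the titles, each Flox group held 10 mice in pools 1-3, 4-7 and 8-10, so that each library stands for 3 or 4 mice and n = 3 per group. The other 6 libraries came from FABP5Flox/LysM-Cre mice (cKO), in which Cre is made under control of the myeloid lysozyme M locus, Lyz2, with 12 mice per treatment in pools 1-4, 5-8 and 9-12. They received the same injections, shared the estimate of the spread and are set beside the Flox response at the end. No group carried LysM-Cre alone, so in cKO the presence of Cre, the altered Lyz2 locus and the targeting of Fabp5 cannot be told apart. The labels give no more on how the pools were collected than their mouse numbers. P-values therefore measure only the spread between pools, taken over Flox and cKO together, part of which may be technical.

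Carrageenan is a seaweed polysaccharide that provokes acute swelling and pain when injected into the paw. Tissue macrophages and other skin cells sense it and release cytokines and chemokines, which draw neutrophils and then monocytes from the blood. Resident macrophages of the skin are known for scavenger receptors, complement C1q and growth factor handling, and newly arrived monocytes for Ly6C, antimicrobial proteins and interferon-inducible genes. Prostaglandins, cytokines and endothelin made at the site act on the endings of pain-sensing neurons.

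Values below are normalized read counts on a single scale for all libraries, recomputed from the recovered reads because the authors normalized saline and carrageenan libraries in separate tables. Per-library values are always given in the order of pools 1-3, 4-7 and 8-10, and values set against each other are saline first and carrageenan second. Reads on genes ranged from 111925 to 637238 in saline and from 220463 to 994161 in carrageenan. A single read was worth between 0.755 and 5.51 normalized counts, the latter in Flox saline 1-3, the shallowest library. That library also stood apart on the first principal component of the Flox libraries, at -172 against 6.74 to 52.1 for the other 5, and Flox carrageenan 4-7 lay at 96.9 on the second against -71.9 to 22.0. Counts of changed genes are therefore also given without each of these libraries where the text leads with them.

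The markers of the sort were in place. Itgam, which encodes CD11b, was read at 375, 322 and 313 in saline and 357, 331 and 322 in carrageenan, with overlapping groups (log2 difference 0.00 ± 0.20, here and below with its standard error, limma adjusted p = 0.992). Ptprc, which encodes CD45, was read at 265, 219 and 285 against 466, 307 and 461, and the macrophage gene Cd68 at 386, 508 and 547 against 432, 527 and 521. Neither passed the test (adjusted p = 0.161 and 0.913). Ly6g had 0 reads in the saline pools and 1 in the carrageenan pools. Fabp5, a carrier of fatty acids inside cells and the gene targeted in cKO, was read at 5.51, 35.0 and 22.5 after saline and 44.3, 98.0 and 34 after carrageenan, with overlapping groups and a log2 difference of 1.61 ± 0.70 that did not pass (adjusted p = 0.185). The saline value of pool 1-3 rested on a single read, and without that pool the Fabp5 difference was 0.87. The lysozyme gene Lyz2 was high in every library, at 2933, 4961 and 5146 against 5843, 4585 and 5900, and did not pass either (0.36 ± 0.32, adjusted p = 0.518).

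Carrageenan changed 734 of 10240 genes tested, 453 higher and 281 lower, with a limma adjusted p (Benjamini-Hochberg over all genes) under 0.05. These are 4.42% of tested genes higher and 2.74% lower, and the shares of each gene group below are read against them. The median log2 difference was 2.58 over the genes that rose and -2.09 over those that fell, against 0.10 over all genes tested. At a log2 difference of 2 or more, 285 genes rose and 151 fell. Protein-coding genes made up 96.0% of the calls. The groups did not overlap for 731 of the 734, a property that selection by a small p favors. The count was 750 without Flox saline 1-3 (422 higher, 328 lower), 414 without Flox carrageenan 1-3 and 347 without Flox carrageenan 4-7, and 294 when the 6 Flox libraries were fitted alone. Of the 734 calls, 285 were also made with the Flox libraries alone. Without Flox carrageenan 8-10 the split turned to 292 higher and 324 lower.

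**Figure D1:**
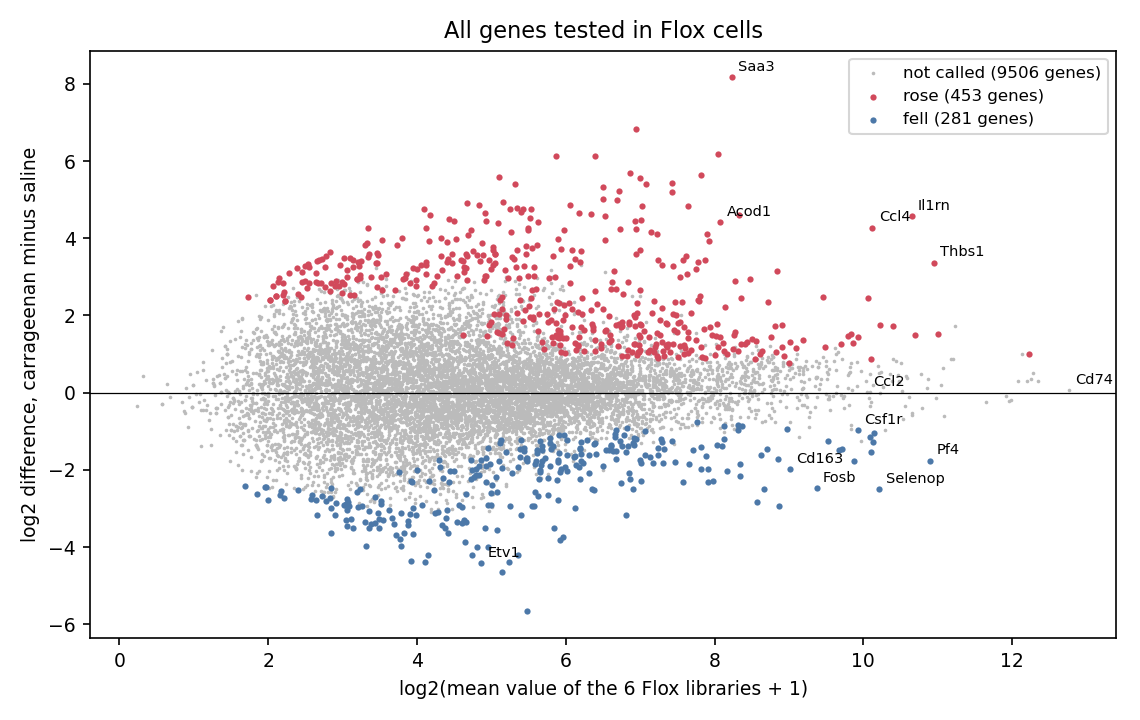
Log2 difference of carrageenan over saline in Flox cells (vertical axis) against log2 of the mean normalized count of the 6 Flox libraries plus 1 (horizontal axis), 1 point per gene tested. The 453 genes that rose are red, the 281 that fell blue and the 9506 not called gray, and Saa3 lies highest, at 8.16.

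Single genes with the smallest adjusted p all rose. Ccl5, a chemokine for T cells and monocytes (ENSMUSG00000035042, chr11:83525778-83530518 on GRCm38), was read at 5.51, 9.32 and 9.64 in saline and 299, 294 and 406 in carrageenan (log2 difference 5.21 ± 0.41, limma adjusted p = 2.62e-05). Acod1, which encodes the enzyme that makes itaconate (ENSMUSG00000022126, chr14:103046977-103056573), was read at 22.1, 14 and 39.7 against 448, 561 and 532 (4.41 ± 0.37, adjusted p = 3.55e-05). Saa3, an acute-phase protein that macrophages can make (ENSMUSG00000040026, chr7:46711998-46715700), was read at 0, 0 and 7.50 against 437, 639 and 716 (8.16 ± 0.74, adjusted p = 5.84e-05). For all 3 even the lowest carrageenan pool lay far above the highest saline pool. Il1rn, the antagonist of the interleukin-1 receptor (ENSMUSG00000026981, chr2:24336853-24351494), was among the most abundant of the genes that rose, at 71.7, 100.2 and 279 against 2512, 3524 and 3136 (4.57 ± 0.44, adjusted p = 7.47e-05). The log2 difference of Saa3, which was near 0 in saline, was 6.44 with 5 instead of 1 added before taking logarithms. Of 6 acute-phase genes tested 4 rose (Saa3, Lcn2, Ptx3 and Hp), with a median of 4.77. Of the 8 listed, Saa2 and Orm1 had reads but lay below the filter on low values (a value of 5 in 3 or more libraries) and were not tested. Saa3 reached 5 in saline only in pool 8-10, so 4 of 6 is no measure of the whole list. Lcn2, which binds bacterial iron carriers, was read at 0, 2.33 and 5.36 against 28.6, 125 and 109 (4.75 ± 0.81, adjusted p = 0.00327). Hp, which encodes haptoglobin, had a log2 difference of 4.84 ± 1.17, and 2.99 without Flox saline 1-3 (not called without Flox carrageenan 1-3, 4-7 or 8-10, with adjusted p up to 0.0816).

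**Figure D2:**
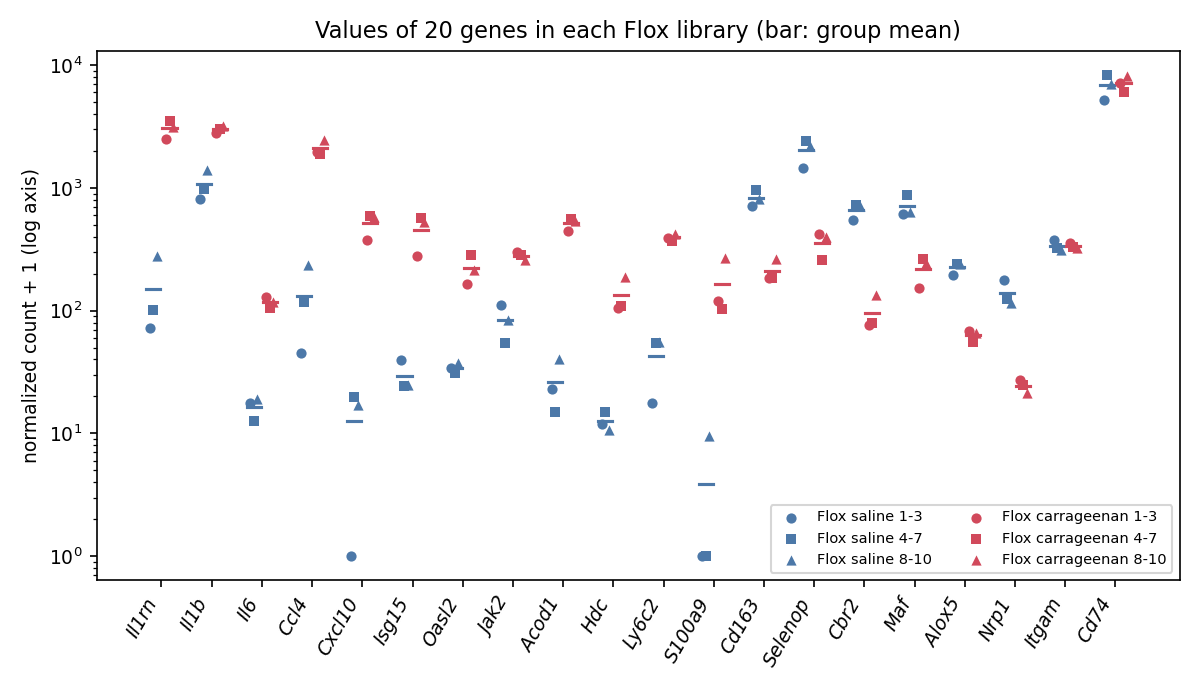
Normalized count plus 1 (vertical axis, log scale) of 20 genes in each of the 6 Flox libraries, with saline pools in blue, carrageenan pools in red, the pool by marker shape and the group mean as a bar. The groups lie apart for the 12 genes that rose and the 6 that fell, and overlap for Itgam and Cd74 at the right.

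Most of the interferon-induced genes tested rose. Of 33 interferon-stimulated antiviral genes tested, 24 rose and 0 fell, with a median log2 difference of 3.19 against 0.10 over all genes, and all 33 lay above 0. The summed level of the list went from 0.0926 to 0.105% of reads in the saline pools to 0.417 to 0.773% in the carrageenan pools. The number of members that rose was 24 without Flox saline 1-3, 15 without Flox carrageenan 4-7 and 16 with the Flox libraries alone. Oasl2, a relative of the enzymes that sense double-stranded RNA, was read at 33.1, 30.3 and 36.4 against 164, 280.4 and 215 (2.66 ± 0.25, adjusted p = 7.29e-05), a tight set of saline values. Isg15, a ubiquitin-like protein attached to other proteins after interferon, was read at 38.6, 23.3 and 23.6 against 279, 571 and 522 (3.93 ± 0.55, adjusted p = 0.00117). Ifit1, which binds viral RNA caps, was read at 0, 11.7 and 9.64 against 177, 307 and 252 (5.55 ± 0.69, adjusted p = 0.000748). In these 3 genes pool 4-7 was the highest of the carrageenan pools, and no saline pool reached any carrageenan pool. Rsad2, which encodes the antiviral enzyme viperin, was uneven in saline, at 110.3, 14 and 6.43, and reached 341, 848 and 608 (4.6 ± 0.70, adjusted p = 0.00173). Ifit3 went from 1 read over the saline pools to 220 over the carrageenan pools (ratio 169, 95% interval 30.1 to 6723 for counting error only), and its near-identical copy Ifit3b from 0 to 59 (at least 15.1-fold higher, against a floor of 3 reads over the group). How reads that fit both copies were counted is not given in the sources used here. Bst2 and Oas2, at 1.82 ± 0.53 and 1.48 ± 0.50, did not pass (adjusted p = 0.0519 and 0.0879).

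Since interferon-stimulated genes are known to share a short promoter element, the interferon-stimulated response element, the promoters of genes that rose are shown with it. Promoter windows of 250 bases before to 50 bases after each gene's start were taken from RefSeq (build GRCm38.p6) and searched on both strands for GAAANNGAAA, which reads TTTCNNTTTC on the other strand. Capitals mark the matches within a stretch, and each stretch runs 5′ to 3′ on the strand of its gene. The windows of Ifit3 and Ifi205 held 2 matches each, not all of which are shown. The stretches lie at chr4:156200850-156200921 (Isg15, minus strand), chr19:34640760-34640838 (Ifit1, plus), chr19:34583348-34583407 (Ifit3, plus), chr12:26456538-26456597 (Rsad2, minus), chr3:142620579-142620638 (Gbp2, plus), chr3:142496744-142496803 (Gbp5, plus), chr1:174031855-174031914 (Ifi205, minus), chr1:173913049-173913108 (Ifi211, minus) and chr11:83020824-83020883 (Slfn8, minus).
Isg15: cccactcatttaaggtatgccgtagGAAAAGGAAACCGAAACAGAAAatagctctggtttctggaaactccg
Ifit1: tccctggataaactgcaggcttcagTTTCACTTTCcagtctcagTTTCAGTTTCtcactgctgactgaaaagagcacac
Ifit3: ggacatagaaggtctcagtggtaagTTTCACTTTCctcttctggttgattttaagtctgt
Rsad2: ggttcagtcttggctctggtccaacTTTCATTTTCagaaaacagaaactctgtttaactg
Gbp2: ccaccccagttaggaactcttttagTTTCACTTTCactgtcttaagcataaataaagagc
Gbp5: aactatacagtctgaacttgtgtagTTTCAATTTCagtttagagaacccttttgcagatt
Ifi205: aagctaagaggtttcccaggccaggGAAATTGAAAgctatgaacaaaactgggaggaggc
Ifi211: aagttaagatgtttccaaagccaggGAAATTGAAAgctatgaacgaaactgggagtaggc
Slfn8: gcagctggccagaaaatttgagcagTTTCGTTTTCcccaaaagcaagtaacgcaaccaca

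The stretches of Ifit1, Ifit3 and Gbp2 hold the same 10 letters, TTTCACTTTC. Those of the related genes Ifi205 and Ifi211 share GAAATTGAAA and most of the bases around it. Among the 52 genes of the 4 interferon lists that rose, 42 had a promoter window and 24 of these held a match. Of 27025 genes with a window in the RefSeq table, tested or not, 3.99% held a match. Among tested antiviral genes, called or not, 15 of the 24 with a window held a match, and among guanylate-binding and immunity-related GTPases 7 of 8. The count was 10 of 16 in the Ifi200 and Schlafen families and 3 of 19 among interferon receptors and transducers. Among inflammatory monocyte genes it was 1 of 17 and among neutrophil genes 0 of 10. Members of the interferon lists that did not pass held matches too, so a match is not read as a mark of the rise. A match is a description of letters and not a bound site. The share over all genes that rose or fell is left out here, as 336 of 453 and 221 of 281 had a window.

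The interferon-induced GTPases, which act on membranes around intracellular microbes, rose with the antiviral genes. Of 11 guanylate-binding and immunity-related GTPases tested, 9 rose and 0 fell, with a median of 3.02 (9 without Flox saline 1-3, 8 without Flox carrageenan 4-7, 5 with the Flox libraries alone). Of the 18 listed 15 had a read, and Gbp2b, Gbp6, Gbp8 and Tgtp2 had reads but lay below the filter on low values. Thus 9 of 11 is no measure of the whole list. Gbp2, Gbp3, Gbp5 and Gbp7 lie in a cluster on chromosome 3, between 142493978 and 142638008. Gbp2 was read at 0, 4.66 and 12.9 against 125, 149 and 101 (4.86 ± 0.72, adjusted p = 0.00159), and Gbp5 at 5.51, 0 and 10.7 against 72.9, 84.5 and 118 (4.42 ± 0.73, adjusted p = 0.00277). Igtp, an immunity-related GTPase, was read at 11.0, 9.32 and 7.50 against 62.5, 112 and 77.8 (3.02 ± 0.42, adjusted p = 0.00108). In all 3 every carrageenan pool was far above every saline pool. Gbp3 rose by 3.57 ± 0.74 and Gbp7 by 2.25 ± 0.48, and both dropped out without Flox carrageenan 4-7 (adjusted p = 0.0528 and 0.0502).

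Of 17 tested members of the Ifi200 family, whose products bind DNA, and the Schlafen family, which restrains cell growth and viral translation, 11 rose and 0 fell (median 2.67, 12 without Flox saline 1-3, 10 without Flox carrageenan 4-7). Ifi209 was read at 22.1, 37.3 and 32.1 against 232, 456 and 257 (3.29 ± 0.36, adjusted p = 0.000259) and Ifi205 at 16.5, 6.99 and 28.9 against 279, 331 and 229 (4.10 ± 0.57, adjusted p = 0.00114). Ifi211, which lies between them on chromosome 1, was read at 22.1, 37.3 and 75.0 against 294, 375 and 307 (3.00 ± 0.45, adjusted p = 0.00159). Members of the family did not all move: Ifi207, at 331, 347 and 263 against 260.4, 581 and 307, had overlapping groups and a log2 difference of 0.21 ± 0.30. Among Schlafen genes on chromosome 11, Slfn5 was read at 127, 88.5 and 65.4 against 281, 774 and 354 (2.23 ± 0.36, adjusted p = 0.00258). Slfn1 (5.00 ± 0.82), Slfn4 (5.44 ± 0.95) and Slfn8 (4.66 ± 0.73) rose further on the log2 scale from lower saline values, and Slfn2 (1.10 ± 0.34) did not pass (adjusted p = 0.0633). Genes of these families resemble each other, and reads shared between copies such as Ifi208 and Ifi213 make their single values uncertain.

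The receptors and transducers of the interferon signal gave a smaller share of rises and a lower median than its targets, a difference that was not tested. Of 20 tested, 8 rose and 0 fell, with a median of 0.82 (8 without Flox saline 1-3, 5 without Flox saline 4-7, 4 without Flox carrageenan 4-7). Irf7, the transcription factor that amplifies type I interferon, was read at 0, 25.6 and 19.3 against 143, 301 and 285 (4.83 ± 0.93, adjusted p = 0.00664). Jak2, a kinase of the interferon-gamma and other cytokine receptors, was read at 110.3, 53.6 and 83.6 against 297, 284 and 255 (1.80 ± 0.27, adjusted p = 0.00159). The carrageenan pools of Jak2 lay within a narrow band, and the groups of both genes were apart. Socs3, an inhibitor of cytokine receptor signaling, was read at 452, 426 and 527 against 1338, 1122 and 1442 (1.47 ± 0.23, adjusted p = 0.00222). The kinase Jak1 (0.17 ± 0.28) and the receptor chain Ifngr1 (-0.32 ± 0.27) had overlapping groups. The interferon regulatory factor Irf1 rose by 1.55 (not called without Flox saline 1-3 or 4-7 or carrageenan 1-3 or 4-7, with adjusted p up to 0.145), Irf9, a partner of Stat2, by 1.31 (not called without Flox saline 8-10 or carrageenan 4-7 or 8-10, with adjusted p up to 0.109), and Stat2 by 1.75 (not called without Flox saline 4-7 or 8-10 or carrageenan 4-7 or 8-10, with adjusted p up to 0.112).

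Of 17 genes of antigen processing for MHC class I, which shows peptides to CD8 T cells, 6 rose and 0 fell (median 0.99, 3 without Flox saline 4-7, 1 without Flox carrageenan 4-7). Tap1, the peptide transporter, was read at 16.5, 30.3 and 34.3 against 117, 213 and 199 (2.67 ± 0.39, adjusted p = 0.00142) and rose in every omission of a library. The classical class I genes H2-K1 (0.48 ± 0.29) and H2-D1 (0.38 ± 0.26) did not pass. Of 14 genes of MHC class II and costimulation 2 rose, the costimulators Cd40 (1.19 ± 0.27, not called without Flox carrageenan 1-3 or 8-10, with adjusted p up to 0.0752) and Cd80 (1.44 ± 0.41, not called without Flox saline 1-3, 4-7 or 8-10 or carrageenan 1-3 or 4-7, with adjusted p up to 0.168). The class II genes themselves were among the most abundant transcripts and gave 0 calls: H2-Aa was read at 3937, 4756 and 4190 in saline and 3356, 3636 and 4010 in carrageenan (-0.23 ± 0.31, adjusted p = 0.696). Cd74, the invariant chain that escorts class II molecules, was read at 5155, 8344 and 7041 against 7134, 6092 and 8109 (0.07 ± 0.32, adjusted p = 0.914).

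**Figure D3:**
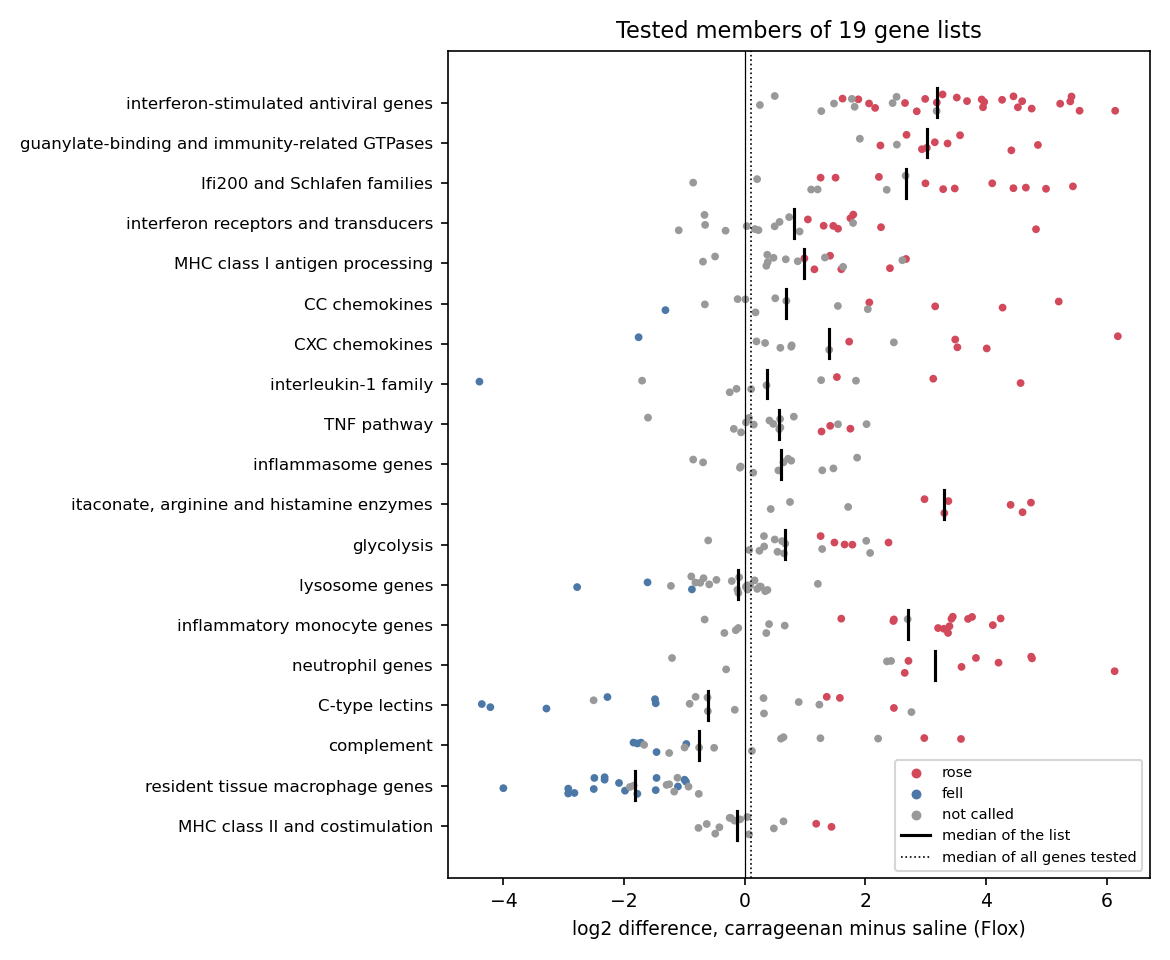
Log2 difference of carrageenan over saline in Flox cells (horizontal axis) for the tested members of 19 gene lists (rows), 1 point per gene, red where it rose, blue where it fell and gray where it did not pass, with each list's median as a bar and the median of all genes tested dotted. The antiviral list lies wholly to the right of 0 and the resident macrophage list wholly to the left, and the inflammasome list has 0 calls.

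Some chemokine ligands rose after carrageenan, and others did not pass the test. Of 13 CC chemokines 4 rose and 1 fell (median 0.69), and of 13 CXC chemokines 5 rose and 1 fell (median 1.40). The CXC count of rises was 3 without Flox saline 4-7 or carrageenan 4-7 and 2 without Flox carrageenan 1-3 or 8-10. Ccl3 and Ccl4, attractants of monocytes and lymphocytes that lie near each other on chromosome 11, both rose. Ccl3 was read at 44.1, 90.9 and 181 against 825, 764 and 849.5 (3.16 ± 0.39, adjusted p = 0.000671), and Ccl4 at 44.1, 116 and 234 against 1958, 1889 and 2442 (4.28 ± 0.47, adjusted p = 0.000261). In saline both were lowest in the shallowest pool and highest in the deepest, and the carrageenan pools were close together. Ccl2, which attracts monocytes through Ccr2, was read at 540.3, 969 and 1806 against 799, 1058 and 1149 (0.01 ± 0.41), and Ccl7, another ligand of Ccr2, at 535, 615 and 1177 against 711, 872 and 909.9 (0.18 ± 0.38). The groups of both overlapped and neither passed (adjusted p = 0.990 and 0.810). Ccl8, made by resident macrophages, fell (-1.31 ± 0.30, not called without Flox carrageenan 1-3 or 4-7, with adjusted p up to 0.0875). Ccl22, a ligand of Ccr4, rose (2.07 ± 0.45, and 1.35 without Flox saline 1-3, not called without Flox carrageenan 4-7, with adjusted p then 0.0608).

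Among CXC chemokines Cxcl10, a ligand of Cxcr3 induced by interferon, was read at 0, 18.6 and 16.1 against 375, 595 and 577 (6.19 ± 0.80, adjusted p = 0.000759). Its neighbors on chromosome 5, Cxcl9 (1 read against 64, ratio 49.3, 95% interval 8.54 to 1977) and Cxcl11 (0 against 25, at least 6.42-fold higher), rose as well. Both dropped out without Flox carrageenan 1-3 (adjusted p = 0.0540 for Cxcl11), and Cxcl9 also without Flox carrageenan 8-10 (0.0541). The other rises were those of the neutrophil attractants Cxcl3 (1.73 ± 0.48, not called without Flox saline 4-7 or carrageenan 1-3, 4-7 or 8-10, with adjusted p up to 0.129) and Cxcl5 (3.53 ± 0.82, not called without Flox saline 4-7 or carrageenan 4-7 or 8-10, with adjusted p up to 0.0694). Their relatives Cxcl1 and Cxcl2 did not pass: Cxcl1 was read at 154, 431 and 586 against 396, 612 and 554 (0.59 ± 0.45) and Cxcl2 at 794, 1156 and 1318 against 1648, 1943 and 1885 (0.77 ± 0.27, adjusted p = 0.103). Pf4, a chemokine of platelets and resident macrophages, fell from 2222, 3817 and 2787 to 953, 628 and 1019 (-1.76 ± 0.45, adjusted p = 0.0305, not called without Flox saline 4-7 or carrageenan 1-3, 4-7 or 8-10, with adjusted p up to 0.149). Ccr2, the receptor of inflammatory monocytes, was read at 149, 277 and 242 against 362, 331 and 334 and did not pass (0.66 ± 0.31, adjusted p = 0.223).

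Cytokines that drive fever, pain and the acute phase rose in part. Il1b, the main secreted interleukin-1, was read at 816, 986 and 1408 in saline and 2817, 3014 and 3214 in carrageenan (1.53 ± 0.33, adjusted p = 0.0118). The groups did not overlap, and its antagonist Il1rn, above, rose by more on the log2 scale. Il6 was read at 16.5, 11.7 and 18.2 against 128, 105 and 116 (2.85 ± 0.32, adjusted p = 0.000362), and Osm, a related cytokine, at 93.7, 32.6 and 113 against 552, 608 and 448 (2.90 ± 0.43, adjusted p = 0.00159). Lifr, a receptor chain of that family, fell from 132, 109.5 and 118 to 23.4, 23.7 and 27.2 (-2.23 ± 0.30, adjusted p = 0.000908), with the carrageenan pools close together. Tnf was read at 138, 217 and 450.1 against 242, 372 and 353, with overlapping groups (0.41 ± 0.43). Its receptor Tnfrsf1b rose from 138, 189 and 374 to 654, 682 and 844 (1.75 ± 0.31, adjusted p = 0.00395) and the signal inhibitor Tnip3 from 99.2, 95.5 and 131 to 302, 243 and 328 (1.42 ± 0.28, adjusted p = 0.00817). In the lists, 3 of 11 interleukin-1 family genes rose and 1 fell, 2 of 8 interleukin-6 family genes rose and 1 fell, and 3 of 17 TNF pathway genes rose, the last being Tnip1 (1.27 ± 0.34, not called without Flox saline 4-7 or 8-10 or carrageenan 1-3, 4-7 or 8-10, with adjusted p up to 0.111). The interleukin-1 list also held the alarmin Il33, which rose (3.13 ± 0.69, not called without Flox carrageenan 4-7, with adjusted p then 0.0527). Il1rl1, the interleukin-33 receptor that fell, was read at 154, 37.3 and 17.1 against 0, 0 and 10.6 (-4.40 ± 0.94, not called without Flox carrageenan 1-3 or 4-7, with adjusted p up to 0.0599).

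Among the sensors and switches upstream of these cytokines a minority of genes was called. The share called was 14.3% for Toll-like receptors and proximal signaling, 13.3% for NF-kB subunits and inhibitors and 0% for inflammasome genes. For AP-1 and immediate early genes it was 23.8%, and over all genes tested 7.17%. Of 21 genes of Toll-like receptors and their proximal signaling 3 rose (Cd14, Tlr2 and Myd88), of 15 NF-kB subunits and inhibitors 2 rose (Bcl3 and Ikbke), and of 12 inflammasome genes 0 changed. Without Flox carrageenan 4-7 none of these 5 kept its call. Cd14, the coreceptor for lipopolysaccharide, was read at 535, 1002 and 1171 against 2385, 2534 and 2325 (1.49 ± 0.36, adjusted p = 0.0230, not called without Flox saline 1-3 or carrageenan 1-3, 4-7 or 8-10, with adjusted p up to 0.0864). Nlrp3, an inflammasome sensor, was read at 159.9, 158 and 205 against 229, 291 and 251 and did not pass (0.56 ± 0.26, adjusted p = 0.217). Among 21 AP-1 and immediate early genes 4 rose (Fosl2, Nr4a3, Ier3 and Batf), none of which kept its call without Flox carrageenan 4-7, and 1 fell. That was Fosb, a subunit of AP-1, read at 1367, 1456 and 567 against 253, 179 and 143 (-2.48 ± 0.42, adjusted p = 0.00307), while Fos (-1.14 ± 0.33) and Junb (0.31 ± 0.24) did not pass.

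Enzymes that make small mediators rose from low saline levels. Of 9 enzymes of itaconate, arginine and histamine metabolism 6 rose and 0 fell (median 3.31). The count of rises was 5 without Flox saline 1-3 or carrageenan 4-7, and 4 without Flox saline 4-7 or carrageenan 1-3. Hdc, which makes histamine, was read at 11.0, 14 and 9.64 against 104, 108 and 187 (3.38 ± 0.45, adjusted p = 0.000906). Slc7a2, the arginine transporter, was read at 0, 2.33 and 4.29 against 96.3, 71.0 and 47.6 (4.75 ± 0.70, adjusted p = 0.00159), and Nos2, the inducible nitric oxide synthase, went from 1 read to 58 (ratio 44.7, 95% interval 7.71 to 1794). Arg1, which competes with Nos2 for arginine, was read at 11.0, 6.99 and 37.5 against 104, 84.5 and 13.6, uneven in carrageenan, and did not pass (1.72 ± 1.03).

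Of 14 prostanoid genes 2 rose and 1 fell, and 5 rose without Flox saline 8-10. The 1 that fell was Hpgd, which breaks prostaglandins down (-3.54 ± 0.77, not called without Flox saline 4-7, with adjusted p then 0.0510, and -2.36 without Flox carrageenan 4-7). Ptgs2, which encodes cyclooxygenase-2, the inducible enzyme of prostaglandin synthesis, was read at 38.6, 14 and 95.4 against 419, 443 and 389.6 (3.44 ± 0.50, adjusted p = 0.00142), with the carrageenan pools close together. Ptges, the prostaglandin E synthase, went from 3 reads to 80 (ratio 20.5, 95% interval 6.78 to 102). In leukotriene synthesis the enzyme Alox5 fell from 193, 240.0 and 240.1 to 67.7, 54.1 and 64.9 (-1.83 ± 0.33, adjusted p = 0.00424), while its activating protein Alox5ap did not pass (-0.37 ± 0.23). Fpr2, a receptor for formyl peptides and lipid mediators, rose from 0, 14 and 13.9 to 80.7, 128 and 134 (4.21 ± 0.81, adjusted p = 0.00655).

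Growth factors and vasoactive peptides gave 5 rises among 15 tested (median 0.78), and 3 when any of the 3 carrageenan pools was left out. Inhba, an activin subunit, was read at 0, 0 and 7.50 against 185, 341 and 201 (6.84 ± 0.88, adjusted p = 0.000759). Edn1, which encodes endothelin-1, a vessel-constricting peptide that also excites pain fibers, was read at 0, 0 and 5.36 against 57.3, 60.8 and 41.5 (4.85 ± 0.70, adjusted p = 0.00142). Csf1, the growth factor of macrophages, went from 3 reads to 91 (ratio 23.4, 95% interval 7.75 to 115). Its receptor Csf1r moved the other way, from 1257, 1410 and 1188 to 700.4, 601 and 660.0 (-0.97 ± 0.26, adjusted p = 0.0351, not called without Flox saline 4-7 or carrageenan 1-3, 4-7 or 8-10, with adjusted p up to 0.14). Cd274, the checkpoint ligand PD-L1, rose from 0, 2.33 and 22.5 to 193, 274 and 201 (5.69 ± 0.77, adjusted p = 0.00101), and Vsir, a checkpoint receptor of myeloid cells, fell from 243, 275 and 200.4 to 98.9, 81.1 and 125 (-1.24 ± 0.24, adjusted p = 0.00781).

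Genes of matrix remodeling moved in both directions, and clotting genes gave rises and 0 falls. Of 20 matrix genes 6 rose (3 without Flox carrageenan 1-3) and 1 fell, and of 16 coagulation genes 4 rose. Timp1, an inhibitor of matrix proteases, was read at 11.0, 23.3 and 90.0 against 331, 318 and 400.2 (3.55 ± 0.63, adjusted p = 0.00424), and the collagenase Mmp13 at 0, 2.33 and 5.36 against 96.3, 30.4 and 64.2 (4.40 ± 0.65, adjusted p = 0.00159). Timp2, another inhibitor of the same proteases, fell from 535, 496 and 538 to 93.7, 94.6 and 183 (-2.14 ± 0.28, adjusted p = 0.000759). Thbs1, the matrix protein thrombospondin-1, was among the most abundant genes that rose, from 237, 205 and 757 to 2908, 4696 and 3014 (3.37 ± 0.56, adjusted p = 0.00307). F10, clotting factor X, rose from 22.1, 9.32 and 66.4 to 409, 534 and 379 (4.11 ± 0.73, adjusted p = 0.00425).

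Metabolic genes changed in a few places. Of 18 glycolysis genes 5 rose and 0 fell (median 0.66), with 2 rises without Flox carrageenan 4-7 and 3 without Flox carrageenan 8-10. Slc2a1, the glucose transporter, was read at 38.6, 35.0 and 65.4 against 179.7, 301 and 246 (2.39 ± 0.48, adjusted p = 0.00824), and Pfkp, a phosphofructokinase, at 55.1, 81.6 and 110.4 against 214, 237 and 223 (1.49 ± 0.31, adjusted p = 0.0107). Pkm, a pyruvate kinase, rose as well (1.26 ± 0.28, not called without Flox saline 4-7 or carrageenan 4-7 or 8-10, with adjusted p up to 0.0587), while Gapdh (0.67 ± 0.35) and Ldha (0.50 ± 0.31) did not pass. Hif1a, the oxygen-regulated transcription factor, rose from 110.3, 107 and 124 to 331, 355 and 436 (1.70 ± 0.27, adjusted p = 0.00220), and the mitochondrial superoxide dismutase Sod2 from 88.2, 147 and 186 to 601, 659 and 828 (2.35 ± 0.30, adjusted p = 0.000748). Of 24 nuclear genes of the respiratory chain 0 changed (median 0.16). In fatty acid handling, the lipase Lpl fell from 502, 501 and 369 to 102, 74.3 and 179 (-2.02 ± 0.34, adjusted p = 0.00327) and the fatty acid transporter Cd36 from 623, 619.8 and 585 to 232, 233 and 202 (-1.45 ± 0.28, adjusted p = 0.00664). Plin2, which coats lipid droplets, rose from 99.2, 139.8 and 163 to 245, 489.9 and 408 (1.47 ± 0.30, adjusted p = 0.00883), and the lipase Lipa fell (-1.61 ± 0.37, not called without Flox carrageenan 4-7, with adjusted p then 0.0792). The other 19 of 23 genes of fatty acid handling did not pass.

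Most genes of resident macrophages fell. Of 24 resident tissue macrophage genes tested 16 fell and 0 rose, all 24 lay below 0, and the median was -1.81 against 0.10 over all genes. The count was 21 without Flox saline 1-3, 10 without Flox carrageenan 4-7 and 15 with the Flox libraries alone. The summed level of the list was 1.97 to 2.43% of reads in saline and 0.562 to 0.719% in carrageenan. In these bulk libraries fewer cells of a type and less RNA per cell cannot be told apart. Cd163, the scavenger receptor for hemoglobin (ENSMUSG00000008845, chr6:124304656-124330527), was read at 706, 955 and 817 against 185, 182 and 261 (-1.98 ± 0.24, adjusted p = 0.000688), and Cbr2, a carbonyl reductase (ENSMUSG00000025150, chr11:120729489-120732114), at 551, 725 and 709 against 75.5, 77.7 and 133 (-2.82 ± 0.36, adjusted p = 0.000759). By group means Cd163 was 3.94 times and Cbr2 6.94 times higher in saline, and neither gene's groups came near each other. Gas6, a bridge to dying cells, fell from 1081, 664 and 726 to 130.2, 74.3 and 120.1 (-2.92 ± 0.41, adjusted p = 0.00121), and Selenop, a selenium carrier, from 1461, 2409 and 2183 to 417, 257 and 393 (-2.50 ± 0.38, adjusted p = 0.00165). Lyve1, a hyaluronan receptor, fell from 584, 813 and 639.8 to 128, 67.6 and 194 (-2.49 ± 0.45, adjusted p = 0.00458), with its lowest value in carrageenan pool 4-7. The pan-macrophage gene Adgre1, which encodes F4/80, fell by less, from 121, 233 and 182 to 96.3, 74.3 and 89.1 (-1.0 ± 0.26, not called without Flox saline 4-7 or 8-10 or carrageenan 1-3, 4-7 or 8-10, with adjusted p up to 0.136). The mannose receptor Mrc1 fell as well (-1.47 ± 0.32, not called without Flox carrageenan 4-7, with adjusted p then 0.0518).

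Transcription factors known from mature macrophages fell with them. Of 28 myeloid transcription factors 6 rose (2 or 3 in the omissions other than that of Flox saline 8-10) and 4 fell, and the count of falls was 4 also without Flox carrageenan 4-7 or Flox saline 1-3. Maf was read at 607, 878 and 631 against 151, 260.2 and 245 (-1.70 ± 0.27, adjusted p = 0.00232), Mef2c at 198, 83.9 and 99.7 against 31.2, 16.9 and 38.5 (-2.07 ± 0.38, adjusted p = 0.00538) and Klf4 at 347, 475 and 241 against 167, 105 and 73.2 (-1.64 ± 0.33, adjusted p = 0.00849). Spi1, the general myeloid factor PU.1, did not pass (0.61 ± 0.34). Etv1 fell from 82.7, 35.0 and 45.0 to 0, 3.38 and 2.27 (-4.41 ± 0.64, adjusted p = 0.00142), and Nfil3 rose from 16.5, 51.3 and 68.6 to 193, 237 and 177 (2.34 ± 0.44, adjusted p = 0.00565). Other large and steady falls lay outside the lists, in the receptor Nrp1, from 176, 123 and 115 to 26.0, 23.7 and 20.4 (-2.50 ± 0.30, adjusted p = 0.000611), and the ubiquitin ligase Wwp1, from 254, 182 and 169 to 23.4, 23.7 and 17.4 (-3.16 ± 0.40, adjusted p = 0.000759).

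C-type lectins and complement split by member. Of 20 C-type lectins 3 rose (1 without Flox saline 4-7 or carrageenan 1-3) and 6 fell. Clec4e, which senses mycobacterial lipids and dead cells, was read at 138, 189 and 355 against 971, 1352 and 1222 (2.47 ± 0.35, adjusted p = 0.00121). Clec10a, which binds galactose sugars, fell from 132, 219 and 286 to 70.3, 27.0 and 36.2 (-2.27 ± 0.40, adjusted p = 0.00394), and Cd209b from 66.2, 30.3 and 51.4 to 2.60, 0 and 3.78 (-4.21 ± 0.67, adjusted p = 0.00231). Its neighbors on chromosome 8, Cd209f (-3.29 ± 0.66) and Cd209g (37 reads against 2, ratio 0.0416, 95% interval 0.00486 to 0.161), fell too, while Cd209a did not pass (0.31 ± 0.28). Reads shared among these related genes make their single values uncertain. Of 17 complement genes 2 rose and 5 fell (2 fell without Flox saline 4-7 or carrageenan 4-7, and 3 without Flox carrageenan 1-3). C3, the central component, rose from 11.0, 9.32 and 47.2 to 253, 247 and 164 (3.59 ± 0.66, adjusted p = 0.00538). C1qc, a chain of the initiator C1q, fell from 965, 1661 and 1759 to 396, 338 and 519.5 (-1.78 ± 0.34, adjusted p = 0.00621). Of the other chains C1qb fell (-1.46 ± 0.35, not called without Flox saline 4-7 or carrageenan 1-3 or 4-7, with adjusted p up to 0.100), and C1qa, at 943, 1500 and 1843 against 536, 530.5 and 678, did not pass (-1.25 ± 0.38, adjusted p = 0.0633).

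Most of the inflammatory monocyte genes tested rose. Of 21 tested 13 rose and 0 fell, with a median of 2.70 (13 without Flox saline 1-3, 11 without Flox carrageenan 4-7, 11 with the Flox libraries alone). The other 8 did not pass, among them the abundant genes Lyz2, S100a4 and S100a6, and 4 of the 21 lay below 0 (lowest -0.66). Ccr2, above, did not pass either. The summed level of the list was 1.28 to 1.97% of reads in saline and 2.58 to 2.74% in carrageenan. Ly6c2, part of the Ly6C surface marker, was read at 16.5, 53.6 and 54.7 against 393, 372 and 421 (3.40 ± 0.55, adjusted p = 0.00256), and Plac8 at 33.1, 30.3 and 67.5 against 414, 355 and 388 (3.21 ± 0.51, adjusted p = 0.00232). Chil3, a chitinase-like protein, was read at 16.5, 32.6 and 55.7 against 338, 368 and 332 (3.43 ± 0.59, adjusted p = 0.00373). The carrageenan values of these genes fell within narrow bands, and the shallow saline pool 1-3 was the lowest or among the lowest for each. Ly6c2 and its copy Ly6c1 are near-identical, and how shared reads were assigned is not given in the sources used here.

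**Figure D4:**
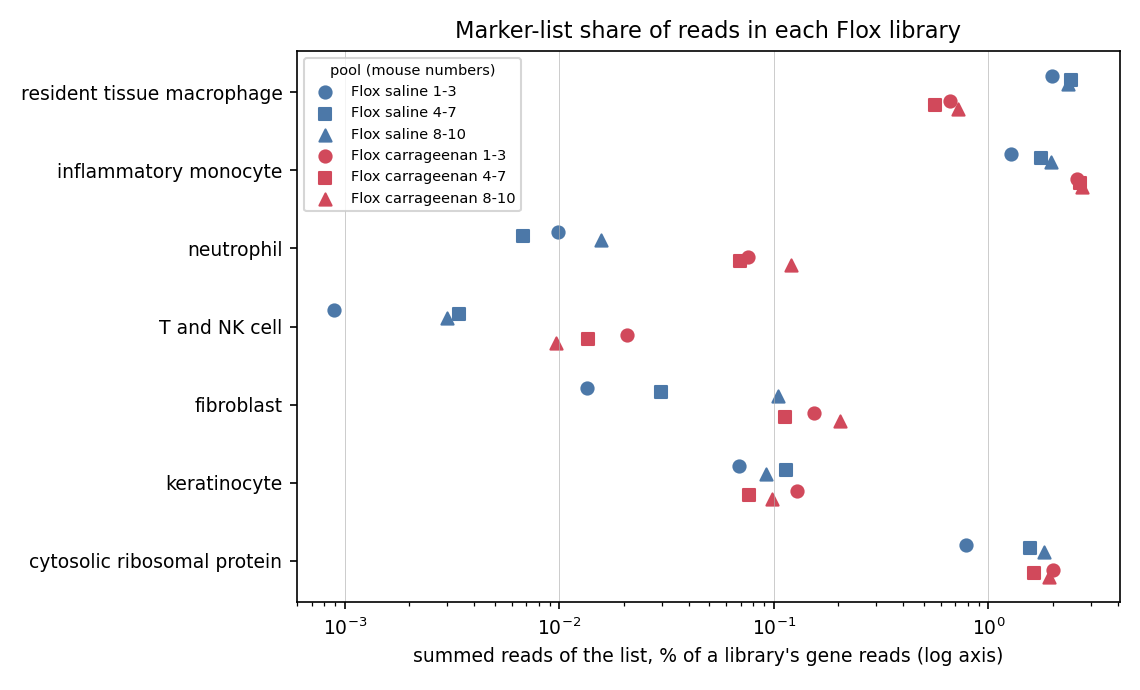
Summed reads of 7 gene lists (rows) as a percent of each library's reads on genes (horizontal axis, log scale), with saline pools in blue, carrageenan pools in red and the pool by marker shape. In each carrageenan pool resident macrophage markers are lower, and monocyte, neutrophil, fibroblast and T and NK cell markers higher, than in any saline pool, while keratinocyte and ribosomal protein genes overlap.

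Some markers of other cells moved with the treatment as well, and their part in the results above was not tested. Of 12 neutrophil genes tested 8 rose (7 without Flox saline 1-3, 5 without Flox carrageenan 1-3 or 4-7), and the list held 0.00679 to 0.0157% of reads in saline and 0.0694 to 0.120% in carrageenan. S100a9, an alarmin of neutrophils and monocytes, was read at 0, 0 and 8.57 against 119.8, 101 and 267 (6.13 ± 0.94, adjusted p = 0.00196), and the receptor Csf3r at 11.0, 6.99 and 20.4 against 80.7, 77.7 and 78.5 (2.65 ± 0.43, adjusted p = 0.00245). Of the 20 genes listed 17 had a read, and Ly6g, Cxcr2, Ltf, Elane and Wfdc21 had reads but lay below the filter and were not tested. In saline S100a9 reached the filter value of 5 only in pool 8-10, and in carrageenan in every pool. Genes of this kind can pass the filter through the carrageenan pools alone, so 8 of 12 is no measure of the whole list. Among granule genes Mmp8, a collagenase, was read at 0, 2.33 and 18.2 against 91.1, 37.2 and 114 (4.21 ± 0.89, not called without Flox carrageenan 1-3, with adjusted p then 0.0526), while Ngp, Camp and Mpo had 0 reads in all 6 libraries. The chemokine receptor gene Cxcr2 had 1 read in saline and 15 in carrageenan. Of 5 T and NK cell genes tested 2 rose, the granzymes Gzmb (1 read against 106, ratio 81.6, 95% interval 14.3 to 3255) and Gzma (1 against 35, ratio 27.0, 95% interval 4.53 to 1095), and Gzma was below the filter on low values when any of the 3 carrageenan pools was left out. Of the 14 genes listed 10 had a read in these libraries: the T cell receptor gene Trbc2 had 0 reads in saline and 6 in carrageenan, while Cd3d, Cd3e, Trac and Cd8a had 0 in both. Trbc2, Cd3g, Nkg7, Klrb1c and Ncr1 had reads but lay below the filter and were not tested. Since Gzma passed the filter only through the carrageenan pools, 2 of 5 is no measure of the whole list. The whole list held 0.000894 to 0.00340% of reads in saline and 0.00966 to 0.0207% in carrageenan.

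Fibroblast genes held 0.0134 to 0.104% of reads in saline and 0.113 to 0.204% in carrageenan, and 2 of 10 rose. Col1a1, a collagen chain, was read at 5.51, 46.6 and 171 against 307, 267 and 387 (3.08 ± 0.79), lowest in the shallowest saline pool and highest in the deepest, and the difference was 1.79 without Flox saline 1-3. Col1a1 was not called without Flox saline 4-7 or carrageenan 1-3, 4-7 or 8-10, with adjusted p up to 0.0883. The other was the proteoglycan gene Dcn (2.07 ± 0.50, not called without Flox saline 1-3 or 4-7 or carrageenan 1-3 or 8-10, with adjusted p up to 0.0795). The number of fibroblast genes that rose was 7 without Flox saline 8-10 and 0 without Flox saline 4-7 or carrageenan 8-10. Endothelial and mural genes held 0 to 0.00392% of reads in saline and 0.00606 to 0.00998% in carrageenan, and 2 of 6 rose (0 without 4 of the Flox pools in turn, 4 without Flox saline 8-10), Pecam1 (2.54 ± 0.68, not called without Flox saline 1-3 or 4-7 or carrageenan 1-3, 4-7 or 8-10, with adjusted p up to 0.0921) and Kdr (1 read against 17, ratio 13.1, 95% interval 2.05 to 547, not called without Flox saline 1-3 or 4-7, with adjusted p up to 0.0915, and below the filter on low values without Flox carrageenan 1-3 or 4-7). Of 10 keratinocyte genes 0 changed, at 0.0688 to 0.114% and 0.0762 to 0.128% of reads. The B cell markers Cd79a and Ms4a1 and the eosinophil gene Epx had 0 reads in the Flox libraries.

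Several groups gave 0 calls in either direction: dendritic cell genes (10 tested, median -0.31), sterol synthesis and efflux (19, median 0.40), heat shock chaperones (15, median 0.37) and proliferation genes (15, median -0.88). Cytosolic ribosomal protein genes also gave 0 of 24 calls, yet all 24 lay above 0, with a median of 0.72 and a summed level of 0.786 to 1.81% of reads in saline and 1.63 to 1.99% in carrageenan. The saline pool 1-3 held the lowest share of them. Of 25 lysosome genes 3 fell (Tpcn1, -2.78 ± 0.44, with Lipa and Man2b1, and Tpcn1 alone without Flox carrageenan 4-7) and 0 rose, and the cathepsins Ctsb (0.21 ± 0.26) and Ctss (0.04 ± 0.28) had overlapping groups.

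The same contrast in cKO cells was set beside the Flox response to ask whether it depended on genotype, as far as 3 pools a group can show. The difference of the 2 responses passed for 0 of 10240 genes (0.0%; limma, smallest adjusted p = 0.966; 246 genes at an unadjusted p under 0.05; edgeR 0, DESeq2 0). Of the 734 genes changed in Flox, 720 (98.1%) had the same sign in cKO, against 6962 (68.0%) of all 10240 genes tested. Of the 734, 217 (29.6%) also passed in cKO, where 271 of all genes tested passed (2.65%). The median standard error of a difference of responses was 0.83 log2 units, against 0.59 for a response, and reads on genes ranged from 508407 to 2987015 in the cKO libraries. Acod1 rose by 4.41 in Flox and 4.50 in cKO (difference -0.09 ± 0.53), and Oasl2 by 2.66 and 2.73 (difference -0.07 ± 0.35). Cd163 had -1.98 in Flox and -1.38 in cKO (difference -0.60 ± 0.35), and Cbr2 -2.82 and -1.87 (difference -0.95 ± 0.51). Cd274 had 5.69 and 3.22 (difference 2.47 ± 1.09), and none of these differences passed. These genes were chosen by their Flox values, which favors larger values in Flox than in cKO. The cKO libraries were also mostly deeper than the Flox ones, so genotype and depth cannot be told apart. The smallest unadjusted p-values of the difference belonged to low-count genes: Cutc had 0 reads in the Flox saline pools and 20 in the Flox carrageenan pools, and Gzma, Adh7 and Cd2 had at most 35 reads in a Flox group.

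**Figure D5:**
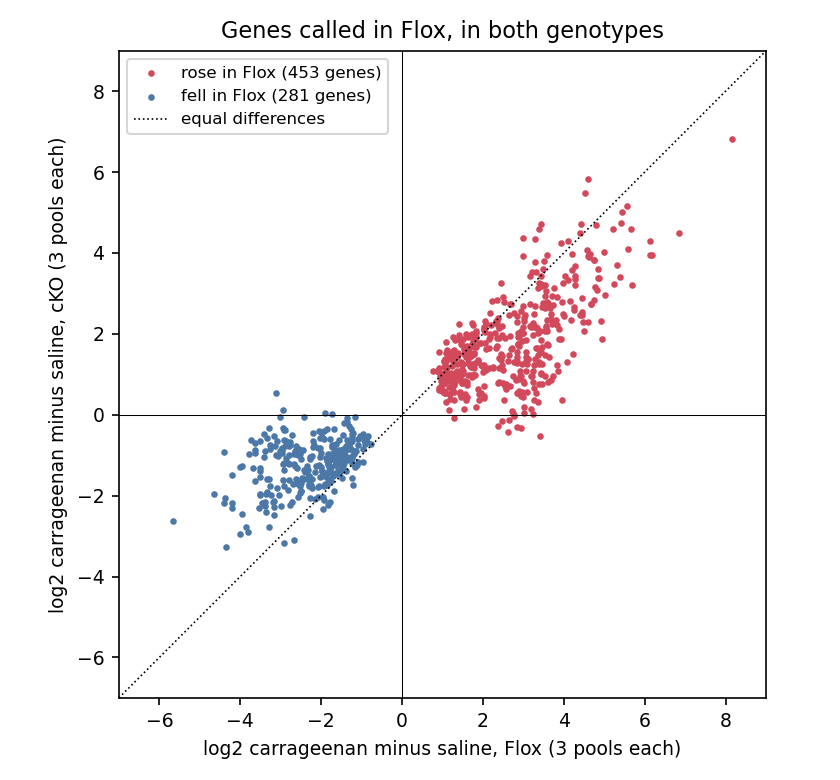
Log2 difference of carrageenan over saline in cKO cells (vertical axis) against that in Flox cells (horizontal axis) for the 734 genes called in Flox, 1 point per gene, red where it rose in Flox and blue where it fell, with the line of equal differences dotted. The sign is the same in both genotypes for 720 of them, and the genes were chosen by their Flox value.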

How the data were processed

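Sorted paw cells of 12 pools were profiled with a 3′ mRNA kit that adds molecular identifiers. The reads were trimmed with cutadapt and aligned with STAR to GRCm38, per the submitters' processing notes, with counter and annotation not given in the sources used here. Normalized counts, a signal of counts divided by 1 size factor per library, were deposited by the authors in separate saline and carrageenan tables. Dividing each library by its smallest step gave whole reads (100% of values within 0.001). These reads were rescaled together by the median of ratios over 6501 genes, on the 55401 gene identifiers, of which 55141 matched a symbol. The 121 entries that name no gene (0.885 to 2.23% of reads in the Flox libraries) were left out. Genes that reached a value of 5 in 3 or more libraries were tested with limma 3.58.1 (trend) in R 4.3.3 on log2(value + 1). A gene near 0 in saline could pass this filter through the carrageenan pools alone, which favors rises among the list members tested. The 4 groups shared 1 fit, and p-values were adjusted by Benjamini-Hochberg over all 10240 genes at 0.05. The fit was tested on simulated data.

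Alternatives were log2(value + 5), other filters, the deposited scale, TMM, edgeR 4.0.16 and DESeq2 1.42.0 on the recovered reads, array weights, a replicate block, the Flox libraries alone and the omission of each library. Gene values in the text are limma's log2 differences on the log2(value + 1) scale, and intervals are exact for counting error only. For low genes this scale can understate a change, or overstate it where a shallow library had no read. Irf7, for example, had a log2 difference of 4.83 with group means of 15.0 in saline and 242.9 in carrageenan. Named genes were identity genes, the largest and most certain rises and falls, the most abundant genes, and up to 6 called and 3 uncalled genes per list. Another 10 were named after their values were seen. The groups, gene lists and rules were chosen with earlier results of these data known. The authors' deposited comparison tables were not used, and results for some genes are not reported here.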

Additional observations from a re-analysis of the deposited data

How the results depend on the processing

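Of 734 genes called, the count stayed within 1.5 times of it with log2(value + 5) (906), on the deposited scale (718, with 52.4% of calls higher against 61.7%), with TMM (705), edgeR (615), DESeq2 (886) and array weights (702). It was 418 with no filter on low values and 294 with the Flox libraries alone, where fewer samples entered the fit, and ran from 347 to 1078 over the omissions of 1 library. Without Flox carrageenan 8-10 the majority turned from higher to lower (47.4% of 616 calls higher). The cause of the lower count with no filter was not tested. With the replicate block it was 737. Pool numbers were not taken as pairs, since the labels give no more than mouse numbers. Same-numbered deviations correlated at 0.009, -0.018 and 0.109, and differently numbered ones at -0.079 to 0.048. With 3 pools a group these correlations cannot decide whether equal numbers mark pairs. The difference between genotypes had 0 calls in every setting. Of 205 named genes called, 52 lost the call with no filter, 63 with the Flox libraries alone, 6 with the replicate block, 69 without Flox carrageenan 4-7 and 0 with log2(value + 5). Calls of genes with 3 or fewer reads in a group, 110 of 734, are limited by depth.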
